A study of Mus musculus with 2 samples.

Results

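Serine and selenocysteine tRNAs were examined in small RNA sequencing of primary murine fibroblasts (PMFs) with high or low levels of the C/D box snoRNA AF357425. They were taken from the table of mature tRNAs by the anticodon in the locus name and comprised 17 of 217 loci and 7 of 52 anticodons. Of these, 15 loci with the anticodons SerAGA, SerCGA, SerGCT, SerGGA and SerTGA belong to serine, and 2 loci, SeC(e)TCA and SeCTCA, to selenocysteine. The rule used only the names, not the measured values, though it was set with earlier results of these data known.

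The fibroblasts were grown from ear clippings of C57BL/6 mice (C57BL/6-J in the study's methods) aged about 3 weeks. AF25-high cells were transfected with 3GA-AF25, a 3rd generation antisense oligonucleotide that raises AF357425, at 200 nM. AF25-low cells were transfected with GM-AF25, a gapmer, whose DNA core lets RNase H cut the bound snoRNA, at 500 nM. Before this transfection of 24 h, the cells of both conditions had been held in G1 for 48 h with KN-93, a CaMK-II inhibitor, at 10 μM. The conditions differed in the oligonucleotide, its chemistry and its dose, so these cannot be told apart from the level of AF357425. Each condition had 1 library, so no test between the conditions was possible. Neither of the 2 libraries came from cells with a control oligonucleotide, and the reads of AF357425 itself were not analysed here. Among microRNA genes of the Ensembl table, 3 of 6 fibroblast and mesenchymal markers were listed. They had 2424 reads in AF25-high cells, against 2457 reads in AF25-low. Of the markers of other tissues, 14 of 15 were not listed. The remaining 1, an epithelial gene, had 6 reads in AF25-high cells, against 0 in AF25-low. Reads counted against miRBase were not analysed here.

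Serine is encoded by more than 1 family of codons, so its tRNAs divide into those for UCN codons (SerAGA, SerCGA, SerTGA and SerGGA) and the one for AGC and AGU codons (SerGCT). The wobble adenosine of SerAGA is deaminated to inosine in mammals, which lets this tRNA read several UCN codons. Selenocysteine tRNA reads UGA as selenocysteine in mRNAs of selenoproteins. It is first charged with serine by seryl-tRNA synthetase, and the serine is then converted on the tRNA. Serine, selenocysteine and leucine tRNAs are the cytosolic tRNAs with a long variable arm, which seryl-tRNA synthetase uses to recognise its tRNAs in place of the anticodon.

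The sequence of a SerGCT gene, n-TSgct5, is shown as an example of the serine form, with its long variable arm, and because it shares a long run with SerTGA. It lies on the minus strand (chr13:22050686-22050767) at the RefSeq position on GRCm38, within a GENCODE M21 transcript, from which the sequence was read. Capitals mark the anticodon, at nucleotides 34 to 36.
n-TSgct5: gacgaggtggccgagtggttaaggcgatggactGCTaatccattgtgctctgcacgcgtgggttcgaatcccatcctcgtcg

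The SerTGA gene n-TStga1 (chr13:23518146-23518227, plus strand) shared 61 of 82 nucleotides with n-TSgct5, and their longest common run was 27 nucleotides, from nucleotide 7 to 33. A fragment that lies within this run fits both anticodons. A further SerTGA gene, n-TStga2 (chr13:21924935-21925016, minus strand), was identical to n-TStga1 over all 82 nucleotides, so no read of the mature sequence can separate these 2 genes. Reads that match several loci had been assigned by the authors to the most expressed locus, so the values of similar loci depend on that assignment. The sequence AACCCCA, the AF357425 site that the study describes in tRNALeu(TAA), was searched on both strands. On the tRNA strand it was in 0 of the 10 RefSeq tRNA genes that lie within a GENCODE exon (0%), of which 4 are serine genes. Its reverse complement, TGGGGTT, was on the tRNA strand of 2 of these 10 genes (20%), n-TStga1 and n-TStga2.

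Serine tRNAs had 857 RPM (24725 reads) in AF25-high cells, against 672 RPM (19544 reads) in AF25-low, where RPM are reads scaled to the depth of the library as a whole. The ratio of AF25-high to AF25-low was 1.28, with an exact (Clopper-Pearson) 95% interval of 1.25 to 1.30. Every interval given here covers counting error only, since variation among cultures was not measured, and reads are not independent molecules. The study describes the reads at tRNA genes as fragments of tRNAs, so the RPM of a tRNA given here count its fragments. The level of the whole tRNAs was not measured in these libraries. In bulk RNA, a lower level per cell and fewer cells with the fragments cannot be told apart. All tRNAs together had 23879 RPM in AF25-high cells, against 16237 RPM in AF25-low, a ratio of 1.47 (1.47 to 1.48), so serine tRNAs took a smaller part of the tRNA reads in AF25-high cells. Their share was 3.59% (3.54% to 3.63%) in AF25-high cells, against 4.14% (4.08% to 4.19%) in AF25-low. Set against all other tRNAs, which no scaling of the libraries changes, the serine ratio was 0.863 (0.847 to 0.879).

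SerAGA supplied most of the serine reads. Without it, the remaining 4 serine anticodons had 7146 reads in AF25-high cells, against 4229 reads in AF25-low, a ratio of 1.70 (1.64 to 1.77), and their share of all tRNA reads was 1.04% in AF25-high cells, against 0.895% in AF25-low. Against all other tRNAs the ratio of these 4 anticodons was 1.16 (1.12 to 1.21). Leucine tRNAs, the other large family with a long variable arm, had a ratio of 1.05 (1.04 to 1.07) in sum. Against all other tRNAs the ratio of this sum was 0.702 (0.692 to 0.713). The leucine anticodons did not move alike. LeuAAG, with the most leucine reads, had a ratio of 0.644, and LeuCAG had 1.01. LeuCAA had 3.27, LeuTAA 1.98 and LeuTAG 1.75. These separate ratios are those of the deposited table, and the study's supplement divides the leucine reads otherwise. LeuTAG is there lower in AF25-high cells, LeuCAA is higher by a smaller ratio, and LeuTAA is close to the value here. The cause of this difference was not tested. LeuAAG was not left out of the leucine sum as SerAGA was of the serine sum, so the leucine sum does not stand for each leucine anticodon. tRNAs without a long variable arm had a ratio of 1.51 (1.51 to 1.52).

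**Figure D1:**
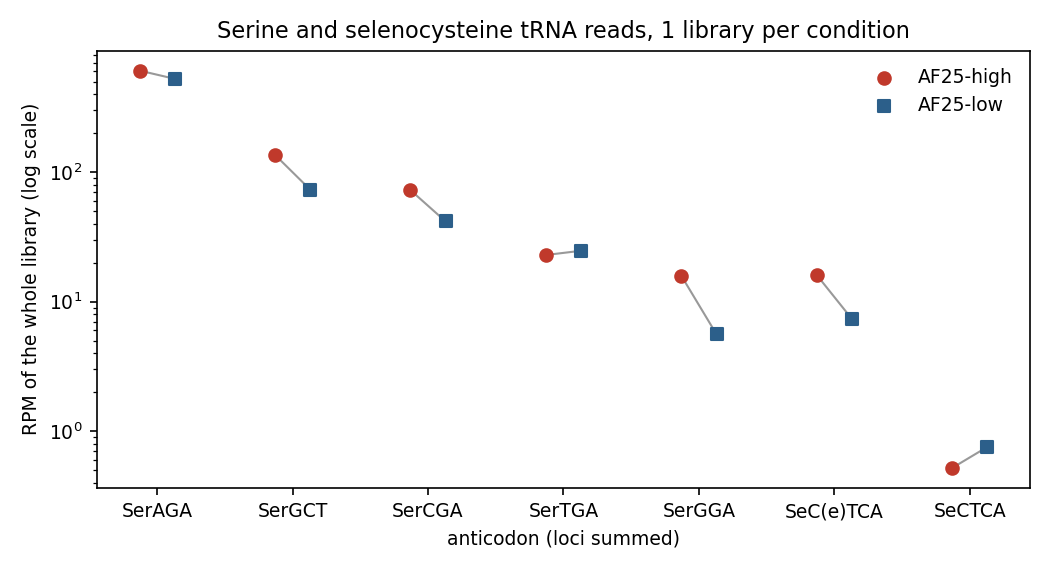
RPM of the 7 serine and selenocysteine anticodons in AF25-high (circles) and AF25-low (squares) cells, on a log axis, with the loci of an anticodon summed and 1 library per condition. SerAGA is far above the others at 609 RPM in AF25-high, against 526 RPM in AF25-low, and SerTGA and SeCTCA are the anticodons with fewer RPM in AF25-high cells in the deposited table.

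The direction of several ratios depends on the scaling. The size factor that the authors used for AF25-high in this table was 1.33 times that for AF25-low. Scaled by these size factors, a ratio below 1.34 in RPM falls below 1, and with the sum of the tRNA table as the scale one below 1.47 does. The serine sum was then 0.949 with the size factors or 0.868 with the table sum, SerAGA 0.861 or 0.787, and leucine 0.784 or 0.717. SerCGA, SerGCT, SerGGA and SeC(e)TCA remained above 1 with both, and SerTGA and SeCTCA remained below 1.

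SerAGA, the inosine-bearing tRNA, had the most fragment reads of the serine tRNAs. It had 609 RPM (17579 reads) in AF25-high cells, against 526 RPM (15315 reads) in AF25-low, with a ratio of 1.16 (1.13 to 1.18) that both other scalings turned below 1. It ranked 13th of 52 anticodons by RPM in AF25-high and 12th in AF25-low cells. Nearly all of these reads were assigned to 1 locus on chromosome 13, chr13.trna980, with 17576 reads (99.98%) in AF25-high cells, against 15311 reads (99.97%) in AF25-low. The other 2 loci of SerAGA were close to undetected, with 3 reads in each library for chr13.trna86 and with 0 reads in AF25-high cells, against 1 read in AF25-low, for chrX.trna493. RefSeq lists 7 SerAGA genes, of which 5 lie on chromosome 13, so the locus cannot be tied to 1 of them by name.

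SerTGA was 1 of 2 anticodons of the group with fewer RPM in AF25-high cells in the deposited table, and its interval held 1. It had 22.9 RPM (662 reads) in AF25-high cells, against 24.7 RPM (720 reads) in AF25-low (ratio 0.927, 0.833 to 1.03). Against all other tRNAs its ratio was 0.630 (0.566 to 0.701). The locus on chromosome 10, chr10.trna1095, took nearly all of these reads and had 22.6 RPM (652 reads) in AF25-high cells, against 24.7 RPM (718 reads) in AF25-low (ratio 0.916, 0.822 to 1.02). RefSeq places 1 SerTGA gene on this chromosome, n-TStga3 (chr10:63429476-63429557), outside any gene of GENCODE and 541 bp from Ctnna3. The locus on chromosome 13, where n-TStga1 and n-TStga2 lie, had 10 reads in AF25-high cells, against 2 reads in AF25-low. Its ratio of 5.04 (1.07 to 47.3) rests on so few reads that its size cannot be read.

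The level and the direction of SerTGA hold for the deposited table only. The RPM in the study's supplement, from which the library totals were derived, divide the reads of SerAGA and SerTGA otherwise, with a far higher level of SerTGA, which is there higher in AF25-high cells, and a lower level of SerAGA. The cause of this difference was not tested. Counted together, a sum chosen after the values were seen, SerAGA and SerTGA had 632 RPM (18241 reads) in AF25-high cells, against 551 RPM (16035 reads) in AF25-low (ratio 1.15, 1.12 to 1.17, below 1 with both other scalings). Against all other tRNAs the ratio of this sum was 0.774 (0.758 to 0.791).

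SerCGA, which reads the UCG codon, was higher in AF25-high cells. It had 72.7 RPM (2099 reads) in AF25-high cells, against 41.6 RPM (1212 reads) in AF25-low, and a ratio of 1.75 (1.63 to 1.88). Its loci did not move alike. chr11.trna400 had 36.7 RPM (1058 reads) in AF25-high cells, against 18.8 RPM (548 reads) in AF25-low (ratio 1.95, 1.75 to 2.16). chr10.trna688 had 33.6 RPM (971 reads) in AF25-high cells, against 19.8 RPM (577 reads) in AF25-low (ratio 1.70, 1.53 to 1.88). On chromosome 13, in contrast, chr13.trna972 had 2.43 RPM (70 reads) in AF25-high cells, against 2.99 RPM (87 reads) in AF25-low. Its ratio of 0.811 had an interval (0.584 to 1.12) that held 1 and lay below those of the other 2 loci. Its share of the SerCGA reads was 3.33% (2.61% to 4.19%) in AF25-high cells, against 7.18% (5.79% to 8.78%) in AF25-low.

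Each of these 3 chromosomes has 1 SerCGA gene in RefSeq, of 82 bp and outside the genes of GENCODE. n-TScga3 (chr11:69110919-69111000) lies 959 bp from Per1, n-TScga2 (chr10:128458464-128458545) lies 703 bp from Smarcc2, and n-TScga1 (chr13:22022419-22022500) lies 12664 bp from the histone gene Hist1h2ah. The last of these is in the region of chromosome 13, from 21492845 to 23521951, that holds 12 of the 22 serine tRNA genes of RefSeq.

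SerGCT, the tRNA of the AGC and AGU codons, was also higher in AF25-high cells, through 1 leading locus, while 3 of its 5 minor loci had intervals that lay below that of the leading one. It had 136 RPM (3927 reads) in AF25-high cells, against 73.3 RPM (2134 reads) in AF25-low (ratio 1.86, 1.76 to 1.96). chr19.trna711 took 95.2% of its reads in AF25-high cells, against 92.3% in AF25-low. This locus had 130 RPM (3737 reads) in AF25-high cells, against 67.7 RPM (1970 reads) in AF25-low (ratio 1.91, 1.81 to 2.02). Its chromosome has 1 SerGCT gene in RefSeq, n-TSgct6 (chr19:5038304-5038385), in no GENCODE gene and 441 bp from B4gat1.

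The other 5 loci of SerGCT together had 190 reads in AF25-high cells, against 164 reads in AF25-low, and the interval of their ratio held 1 (1.17, 0.943 to 1.45). Both other scalings turned this ratio below 1. Of these, chr13.trna992 stood with the leading locus, at 2.88 RPM (83 reads) in AF25-high cells, against 1.48 RPM (43 reads) in AF25-low (ratio 1.95, 1.33 to 2.88). chr13.trna976, on the same chromosome, had 1.63 RPM (47 reads) in AF25-high cells, against 1.82 RPM (53 reads) in AF25-low (ratio 0.894, 0.591 to 1.35). The lowest ratio of any serine or selenocysteine locus that reached 20 reads in 1 library or both was that of chr2.trna1509, with 24 reads in AF25-high cells, against 36 in AF25-low (0.672, 0.384 to 1.16). Its candidate gene is n-TSgct7 (chr2:119046750-119046831), 288 bp from Knl1. chr1.trna791 had 22 reads in AF25-high cells, against 24 in AF25-low, and chr11.trna1821 had 14 reads in AF25-high cells, against 8 in AF25-low. Both intervals held 1. A read that matches several SerGCT loci was given to the most expressed of them, so reads shared with the leading locus are not in the minor ones.

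SerGGA had the highest ratio of the 7 anticodons and the 3rd highest of 48 anticodons, those that reached 50 reads in 1 library or both. With all its reads at chr11.trna832, it had 15.9 RPM (458 reads) in AF25-high cells, against 5.60 RPM (163 reads) in AF25-low (ratio 2.83, 2.36 to 3.41). Against all other tRNAs the ratio was 1.93 (1.61 to 2.32). In the study's supplement the RPM of SerGGA are higher in both libraries, and SerGGA is there also higher in AF25-high cells. RefSeq lists a single SerGGA gene, n-TSgga1 (chr11:100538158-100538230), outside any GENCODE gene and 7377 bp from Ttc25. At 73 bp it is the exception in length, since the other 21 serine tRNA genes of RefSeq are 82 bp long. Its sequence was not read, so whether it has a long variable arm was not examined. SerGGA counts in the serine and UCN sums by its name.

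Reads of selenocysteine tRNA came almost wholly from SeC(e)TCA. This locus, chr7.trna86, had 16.1 RPM (464 reads) in AF25-high cells, against 7.35 RPM (214 reads) in AF25-low (ratio 2.19, 1.86 to 2.58). Against all other tRNAs its ratio was 1.49 (1.26 to 1.76), and its ratio ranked 7th of the 48 anticodons. The locus named SeCTCA, chr5.trna13, was rare and had 15 reads in AF25-high cells, against 22 reads in AF25-low (ratio 0.688, 0.332 to 1.39). Both together had 16.6 RPM in AF25-high cells, against 8.11 RPM in AF25-low, a ratio of 2.05 (1.75 to 2.40). SeC(e)TCA made up 96.9% (94.9% to 98.2%) of the selenocysteine reads in AF25-high cells, against 90.7% (86.2% to 94.1%) in AF25-low. Selenocysteine tRNAs were 0.0695% of all tRNA reads in AF25-high cells, against 0.0499% in AF25-low.

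**Figure D2:**
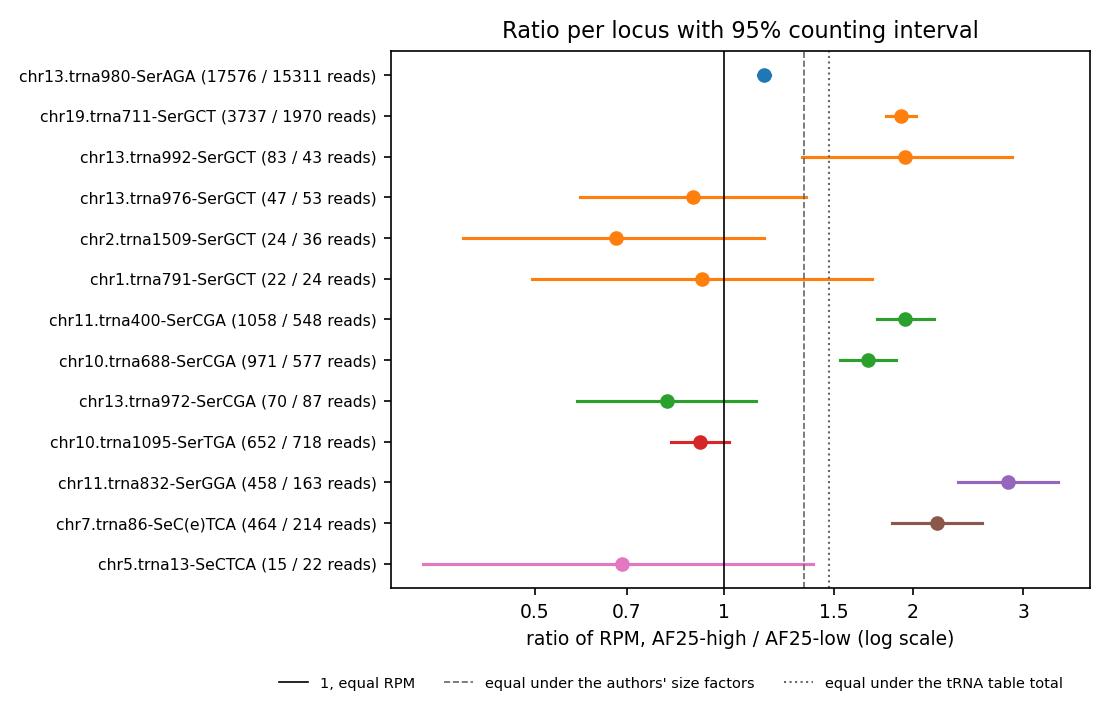
RPM ratio, AF25-high over AF25-low, on a log axis for the 13 serine and selenocysteine loci that reached 20 reads in 1 library or both, with the exact 95% counting interval as a bar and reads as AF25-high / AF25-low. In RPM the interval lies above 1 for 7 loci and holds 1 for 6, and the dashed and dotted lines mark the ratios that become 1 under the authors' size factors (1.34) and the tRNA table total (1.47).

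Of the 17 loci, 13 reached 20 reads in 1 library or both, and the remaining 4 had at most 14. The interval lay above 1 for 7 of the 13 loci, against 63.1% of the 149 tRNA loci at the same minimum. It held 1 for the other 6 and lay below 1 for 0, against 15.4% of all loci. With the authors' size factors it lay above 1 for 5 of 13 loci, against 37.6% of all loci, and below 1 for 4, against 37.6%. These 4 were chr13.trna980 of SerAGA, chr13.trna972 of SerCGA, chr2.trna1509 of SerGCT and chr10.trna1095 of SerTGA. A ratio of at least 2 was found for 2 of 13 loci, SerGGA and SeC(e)TCA, against 20.8% of all loci. A ratio of 0.5 or less was found for 0 of 13 loci, against 2.68% of all loci. Scaled by the authors' size factors, 1 of 13 loci, SerGGA, was at least 2-fold higher in AF25-high cells, against 5.37% of all loci, and 1, chr2.trna1509, at least 2-fold lower, against 6.04%. The 11 serine loci at this minimum had a median log2 ratio of 0.21 (6 higher and 5 lower in AF25-high), the 15 leucine loci 1.04 and all 149 loci 0.50 (107 higher and 42 lower). With the authors' size factors the median was -0.22 for serine, 0.61 for leucine and 0.07 for all loci. With a minimum of 50 reads the median of the serine loci was 0.76, as the 2 loci that left were both lower in AF25-high.

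**Figure D3:**
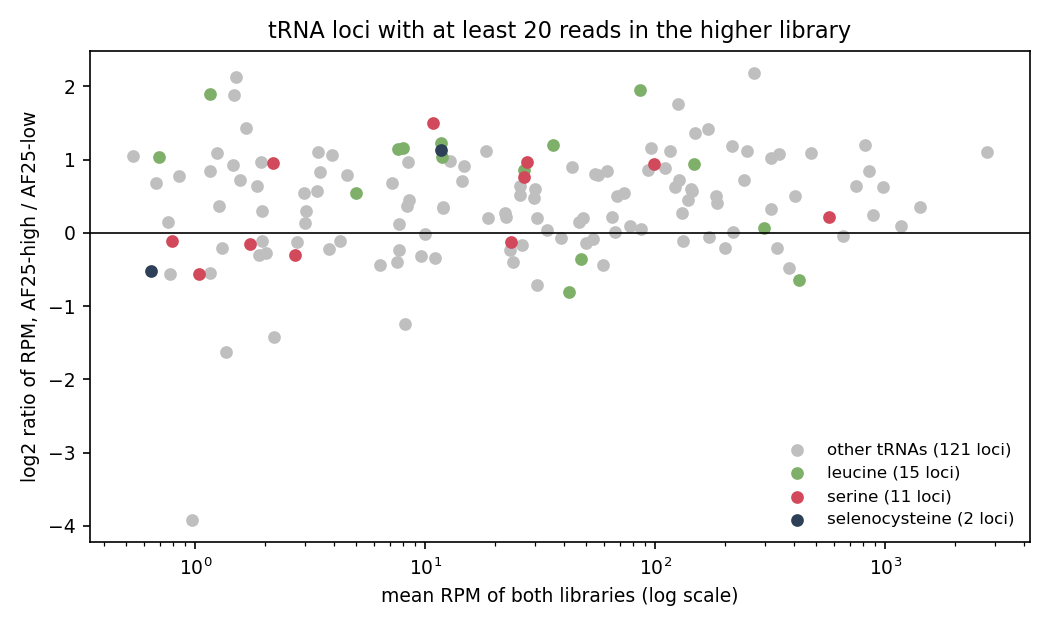
Log2 ratio of RPM (AF25-high over AF25-low, 0.5 reads added to each value) against the mean RPM of both libraries for the 149 tRNA loci that reached 20 reads in 1 library or both, with serine, selenocysteine and leucine loci coloured. Serine loci lie on both sides of 0, 6 above and 5 below, and those below 0 have at most 24.7 RPM in either library.

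The isoacceptors took different shares of the serine reads in the 2 libraries, a measure that is independent of scaling. SerAGA made up 71.1% (70.5% to 71.7%) of serine reads in AF25-high cells, against 78.4% (77.8% to 78.9%) in AF25-low. SerGCT had 15.9% (15.4% to 16.3%) in AF25-high cells, against 10.9% (10.5% to 11.4%) in AF25-low. SerCGA had 8.49% in AF25-high cells, against 6.20% in AF25-low, and SerGGA had 1.85% in AF25-high cells, against 0.834% in AF25-low. These 3 anticodons thus had larger shares in AF25-high cells, and SerAGA and SerTGA smaller ones. SerTGA had 2.68% (2.48% to 2.89%) in AF25-high cells, against 3.68% (3.42% to 3.96%) in AF25-low. The share of SerGGA holds for the deposited table only, since its RPM are higher in the study's supplement. Since SerAGA and SerTGA are divided otherwise in the study's supplement, their separate shares hold for the deposited table only. Together they made up 73.8% (73.2% to 74.3%) of serine reads in AF25-high cells, against 82.0% (81.5% to 82.6%) in AF25-low. By codon family, the UCN anticodons had 721 RPM in AF25-high cells, against 598 RPM in AF25-low, a ratio of 1.20 (1.18 to 1.23). It lay below that of SerGCT and fell below 1 with both other scalings. SerAGA supplied most of the UCN reads, so the UCN sum largely repeats the value of SerAGA. The UCN anticodons did not move alike. SerAGA and SerTGA had ratios below that of SerGCT, and SerGGA, at 2.83, had one above it. The interval of SerCGA (1.63 to 1.88) overlapped that of SerGCT (1.76 to 1.96).

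**Figure D4:**
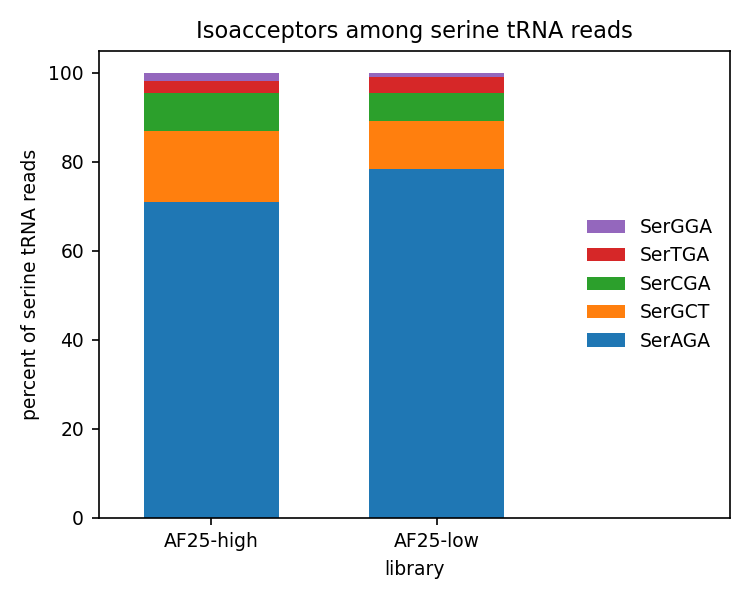
Share of each isoacceptor among serine tRNA reads in percent, AF25-high left and AF25-low right, 1 library each. SerAGA fills 71.1% of the left bar and 78.4% of the right bar, and SerGCT fills 15.9% of the left and 10.9% of the right bar.

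Modifications of the anticodon loop divide the same tRNAs. In mammals SerAGA, SerCGA, SerTGA and selenocysteine tRNA carry isopentenyladenosine next to the anticodon, while SerGCT carries threonylcarbamoyladenosine there. The isopentenyladenosine group had 20819 reads in AF25-high cells, against 17483 reads in AF25-low, a ratio of 1.20 (1.18 to 1.23) that also fell below 1 with both other scalings. SerAGA supplied most of its reads, so the sum largely repeats the value of SerAGA, and SerGGA, outside both groups, had the highest ratio. The modifications themselves were not measured.

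Serine tRNAs of mitochondria were measured in the Ensembl table, and both were higher in AF25-high cells. mt-Ts1, which reads UCN codons, had 9.22 RPM (266 reads) in AF25-high cells, against 5.57 RPM (162 reads) in AF25-low (ratio 1.66, 1.36 to 2.03). mt-Ts2, which reads AGY codons and lacks the D arm in mammals, had 10.6 RPM (306 reads) in AF25-high cells, against 7.56 RPM (220 reads) in AF25-low (ratio 1.40, 1.18 to 1.68). With the authors' size factors of the Ensembl table the ratios were 1.44 for mt-Ts1 and 1.22 for mt-Ts2. Together they had a ratio of 1.51 (1.32 to 1.72), beside 1.43 (1.38 to 1.48) for the other 20 mitochondrial tRNAs, so the intervals overlapped. Their sequences are shown because they differ from the nuclear genes in length, with 69 nucleotides for mt-Ts1 (chrM:6870-6938, minus strand) and 59 for mt-Ts2 (chrM:11613-11671, plus strand).
mt-Ts1: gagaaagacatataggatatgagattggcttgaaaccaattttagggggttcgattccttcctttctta
mt-Ts2: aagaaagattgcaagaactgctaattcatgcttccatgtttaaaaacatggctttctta

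The Ensembl table also lists a transcript of n-TStga1 as a microRNA. The transcript has 109 nucleotides and runs past the 3′ end of the tRNA gene by 23 nucleotides (chr13:23518228-23518250), where the precursor of a tRNA has the trailer that is cut off as it matures.
n-TStga1 bases after the tRNA: tgaatgtattttcttgacatgta
The transcript had 4.26 RPM (123 reads) in AF25-high cells, against 1.48 RPM (43 reads) in AF25-low (ratio 2.88, 2.02 to 4.18). In the table of mature tRNAs, from the same libraries, the SerTGA locus on chromosome 13 had too few reads to compare. It had 10 reads in AF25-high cells, against 2 in AF25-low. The SerTGA sum there, nearly all from chromosome 10, had a ratio of 0.927. The ratio of the transcript was 2.50 with the authors' size factors of the Ensembl table. The positions of these reads were not analysed, so those of the tRNA and of the bases after it cannot be told apart. Gm44456, the transcript over n-TStga2, had 4 reads there in AF25-high cells, against 8 reads in AF25-low.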

How the data were processed

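Reads had been aligned by the authors to GRCm38 and small RNA libraries in sRNAbench, which calls Bowtie (its version is not given in the sources used here), and each was assigned to 1 locus. Table by table, they then divided counts by library size factors. The deposited signal values of the mature tRNA table and the Ensembl table are therefore normalized counts. The tables also hold fold changes and p-values of the authors' comparison, which were not used, and the RNAcentral table was not used because its entries carry no gene names.

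The smallest value above 0 in a column was taken as 1 read, which made 100% of values whole numbers of reads (relative tolerance 1e-06) and gave 689078 tRNA reads for AF25-high and 472550 for AF25-low. RPM rest on library totals of 28856715 and 29103700 reads, the medians of reads over the RPM listed in the study's supplement for the 38 anticodons that reach 100 RPM in each library. Ratios have exact Clopper-Pearson 95% intervals. For log2 ratios 0.5 reads were added. With 1 library per condition, no test was made, also none on the recovered counts, and there were no replicates to leave out. Counts of loci took those that reached 20 reads in 1 library or both, and those with at least 50 were named, as were all anticodons and the locus with the highest and the lowest ratio at 20 reads. Loci were tied to a RefSeq gene (GRCm38.p6) only where 1 gene of that anticodon lies on the chromosome. Sequences are those of GENCODE M21 transcripts at RefSeq positions, found for 10 of 403 tRNA genes, on the strand that holds the T arm. The results on 1 sequence are not reported here.

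The members and lists were chosen with earlier results of these data known. The alternatives were scaling to the tRNA table total or by the authors' size factors, a minimum of 50 reads or 1 read, a pseudocount of 1 read, and leaving out the most abundant locus, anticodon or other anticodons. Scripts ran in Python 3.11.15 with scipy 1.17.1, pandas 2.3.3, numpy 2.4.6 and, for plots, matplotlib 3.10.9, and the steps were tested on simulated data.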

Additional observations from a re-analysis of the deposited data

How the results depend on the processing

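Scaled to the tRNA table total, the ratio of AF25-high to AF25-low was 0.868 for the serine sum, 0.787 for SerAGA and for its leading locus, and 1.39 for the selenocysteine sum, with 0 loci at least 2-fold higher and 2 at least 2-fold lower. Scaled by the authors' size factors, these were 0.949, 0.861, 1.52, 1 locus and 1 locus. The serine sum was 1.70 without the leading locus of SerAGA and likewise without SerAGA, and SerAGA without that locus was 0.756, from 3 reads in AF25-high and 4 reads in AF25-low. The selenocysteine sum without SeC(e)TCA was 0.688, from 15 reads in AF25-high and 22 reads in AF25-low, an alternative chosen after the data were seen, as were the scalings of the median of serine loci. Without ProTGG, LysCTT and LysTTT, the most abundant other anticodons, serine had 5.06% of tRNA reads in AF25-high cells, against 5.65% in AF25-low. A minimum of 50 reads left the 2-fold counts at 2 higher and 0 lower, no minimum beyond 1 read gave 3 and 0 (chrX.trna493, with 0 reads in AF25-high and 1 read in AF25-low, has no fold and was not counted), and the pseudocount of 1 read left the median at 0.21. Counting error limits the minor loci, and the spread between cultures was not measured.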
